A study of Mus musculus with 36 samples.

Results

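Jun, Junb and Jund, the 3 Jun family genes, were described together with Atf3 and with Maff, Mafg and Mafk, the 3 small Maf genes. These 7 genes were taken from a fixed list, by symbol, out of 26709 genes in the RNA table, and all 7 passed the filter on low values. They were followed in cortical neurons of CD-1 mouse embryos, taken at embryonic day 15 and kept in culture for 7 days. All neurons were first silenced with 100 µM AP-5, which blocks NMDA receptors, and 1 µM TTX, which blocks voltage-gated sodium channels. BDNF (brain-derived neurotrophic factor, a ligand of the TrkB receptor) at 10 ng/ml or KCl at 55 mM, which depolarises the membrane, was then given after 2 h for 1, 6 or 10 h. Controls received neither and were left in both blockers for 3, 8 or 12 h in all. RNA-seq, which counts transcripts, and ATAC-seq, which counts reads from open chromatin, each had 18 libraries, 2 in each of the 9 groups of stimulus and time. The libraries of a group are called A and B here. The letters of ATAC libraries pair nothing with the RNA libraries.

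Jun proteins carry a leucine zipper and pair with each other, with Fos proteins or with ATF proteins to form AP-1, which binds the sequence TGACTCA and, in some pairings, the longer cyclic AMP response element TGACGTCA. Jun is known as a strong activator, while Junb and Jund often temper Jun in the same cell. Atf3 is a stress-induced partner of Jun that can act as a repressor. Small Maf proteins lack an activation domain, so what they do depends on the partner: paired with Nfe2l2 or related CNC proteins they activate genes with an antioxidant response element, and paired with themselves or with Bach proteins they repress. Several of these genes are immediate early genes in neurons, switched on without new protein synthesis.

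The RNA libraries held 8.51 to 36.7 M reads, and the ATAC libraries 1.24 to 6.24 M in peaks. The shallowest ATAC library was KCl 6 h library B, at 1.24 M beside a median of 3.55 M. Peak values at 6 h of KCl therefore rest in part on fewer reads. KCl 6 h library B stood apart among the RNA libraries: Gm42418 took 3.26% of its reads, against a highest share for any gene of 0.64 to 1.01% in the others, and it differed from library A of its group with a chi-square per degree of freedom of 39.58, against 2.44 to 10.41 in the other 8 groups. For the Jun family genes, Atf3 and the small Maf genes, test results at 6 h of KCl that turned on this library are also given without it. Marker genes, other listed genes and correlations over group means are given only with this library included. Whether their values at 6 h of KCl depend on it was not tested. Summed markers of neurons lay between 39659 and 50967 normalised counts (read counts divided by a size factor of the library) and those of microglia between 73.7 and 116.5, with astrocyte markers at 7027 to 12638, so the cultures also held glial RNA. Summed markers of GABAergic neurons (Gad1, Gad2, Slc32a1 and Dlx2) moved with stimulation, from 6040 to 7436 in controls to 8357 to 10225 with BDNF and 8553 to 11491 with KCl, with 3 of the 4 called higher in 5 of the 6 comparisons against controls and all 4 at 6 h of KCl. Astrocyte markers went the other way later, with 4 of the 4 tested called lower at 6 h of BDNF and at 6 h and 10 h of KCl and 2 at 10 h of BDNF. Summed markers of cycling cells spanned 3945.5 to 6629.1 in controls, 3466 to 5439 with BDNF and 2744 to 6250 with KCl, and 3 of the 4 were called lower at 6 h and at 10 h of BDNF, 2 at 6 h and all 4 at 10 h of KCl. In these 6 comparisons 21.1 to 33.4% of all genes were called higher and 19.0 to 33.1% lower. Of the 4 glutamatergic neuron markers, 3 were higher at 6 h of BDNF and all 4 at 6 h of KCl. At 1 h of BDNF 2 of them were higher and 2 lower. Of the 5 neuron markers, 4 were higher and 1 lower at 1 h of KCl. No shift is called particular to a cell type from these counts. The part of these shifts in the results was not tested. In such bulk cultures, fewer cells of a type and less RNA per cell cannot be told apart.

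Promoters of the 4 genes with the largest change at 1 h of BDNF are shown first, because they carry different elements. The windows are from RefSeq on GRCm38.p6 (the build mm10), run from 250 bases before to 50 after the annotated start and are written along the gene's strand. Entries were found for all 7 genes, 9 windows in all, of which 3 are for Maff, and the Maff window shown is the one that lies under its promoter peak of open chromatin. Capitals mark TGACGTCA, its 1-base variants TGACATCA and TTACGTCA, the variant TTACCTCA, and the EGR site GCGTGGGCG, all searched on both strands, as were TGACTCA, the CArG box (the site of SRF), the core CGTCA and TGACNNNGC, the core of the element that small Maf proteins bind. The variants of TGACGTCA were chosen after the sequences had been seen.
Maff, chr15:79347270-79347569, plus strand: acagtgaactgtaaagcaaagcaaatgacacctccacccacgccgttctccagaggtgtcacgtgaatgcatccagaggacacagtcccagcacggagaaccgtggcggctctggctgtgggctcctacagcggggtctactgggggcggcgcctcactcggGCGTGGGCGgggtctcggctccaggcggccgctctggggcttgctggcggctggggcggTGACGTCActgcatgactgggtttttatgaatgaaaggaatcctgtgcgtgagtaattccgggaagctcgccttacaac
Atf3, chr1:191183284-191183583, minus strand: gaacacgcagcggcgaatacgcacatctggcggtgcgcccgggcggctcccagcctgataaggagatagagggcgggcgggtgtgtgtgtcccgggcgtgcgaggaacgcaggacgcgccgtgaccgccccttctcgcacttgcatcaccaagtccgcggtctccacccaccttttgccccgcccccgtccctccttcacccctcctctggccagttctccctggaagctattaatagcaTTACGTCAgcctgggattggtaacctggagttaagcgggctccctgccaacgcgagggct
Jun, chr4:95052173-95052472, minus strand: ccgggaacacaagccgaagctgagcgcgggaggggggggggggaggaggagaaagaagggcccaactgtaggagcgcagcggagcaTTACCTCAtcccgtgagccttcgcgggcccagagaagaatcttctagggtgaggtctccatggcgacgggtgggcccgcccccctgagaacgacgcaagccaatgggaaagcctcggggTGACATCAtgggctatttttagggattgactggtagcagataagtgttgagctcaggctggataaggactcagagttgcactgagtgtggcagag
Junb, chr8:84978699-84978998, minus strand: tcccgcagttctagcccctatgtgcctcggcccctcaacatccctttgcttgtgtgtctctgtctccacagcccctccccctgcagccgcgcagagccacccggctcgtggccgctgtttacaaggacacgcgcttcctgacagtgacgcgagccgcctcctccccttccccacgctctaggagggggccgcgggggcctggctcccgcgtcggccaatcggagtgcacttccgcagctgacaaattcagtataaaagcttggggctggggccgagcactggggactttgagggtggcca

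The full element TGACGTCA began 29 bases before this Maff start, and 1.79% of all 32851 promoter windows held it. The same Maff window held GCGTGGGCG, found in 0.61% of windows. TTACGTCA began 10 bases before the Atf3 start and is present in 0.5% of windows. Jun held TGACATCA (3.62% of windows) 45 bases before its start and TTACCTCA (0.89%) 164 bases before it. The Junb window held none of the capitalised elements and no TGACTCA or CArG box, but it held the short core CGTCA, which 20.81% of windows hold. TGACNNNGC, present in 12.39% of windows, was in none of the 4 shown and in those of Mafg, Mafk and another Maff start. Outside these windows, a peak of open chromatin inside Junb, chr8:84976331-84976776, held 1 CArG box, 2 CGTCA and 1 TGACNNNGC in its central 300 bases. Of all peak windows 1.43, 16.52 and 12.31% held these elements. TGACTCA, which 11.29% of all peak windows held, was in the central 300 bases of the Mafg promoter peak, chr11:120632649-120633790, and of an Atf3 peak, chr1:191224141-191224989. A match of letters is a description of the sequence and not evidence of binding.

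The first question was which of the genes responded to each stimulus and when. The 6 comparisons with controls share the same 6 control libraries. A gene was called when its Benjamini-Hochberg adjusted p from limma, over all 16209 genes tested, was below 0.1. At 1 h all 7 were called higher than the 6 controls with BDNF, where 40.4% of all genes were called, 21.3% higher and 19.0% lower. All 7 were also called higher at 1 h of KCl, where 54.7% of all genes were called, 26.5% higher and 28.2% lower. With BDNF 4 of 7 were still higher at 6 h (43.3% of all genes called, 22.1% higher and 21.1% lower) and 3 of 7 at 10 h (40.6% called, 21.1% higher and 19.5% lower). With KCl 5 were higher and Jun was lower at 6 h (66.5% called, 33.4% higher and 33.1% lower), and 6 were higher and Jun lower at 10 h (57.2% called, 29.0% higher and 28.2% lower). Without KCl 6 h library B, all 7 were called at 6 h, with Jund at 0.33 on the log2 scale and an adjusted p of 0.04745 in the limma test, and Atf3 at 1.10, Maff at 3.34 and Mafg at 0.58. The median log2 fold change of the 7 genes was 1.36, 0.20 and 0.41 at 1, 6 and 10 h of BDNF and 0.96, 0.80 and 0.66 with KCl. The median over all genes stayed within 0.008 of 0 in these comparisons. Division by a size factor per library can itself hold that median near 0, so it cannot show whether RNA changed in general.

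**Figure D1:**
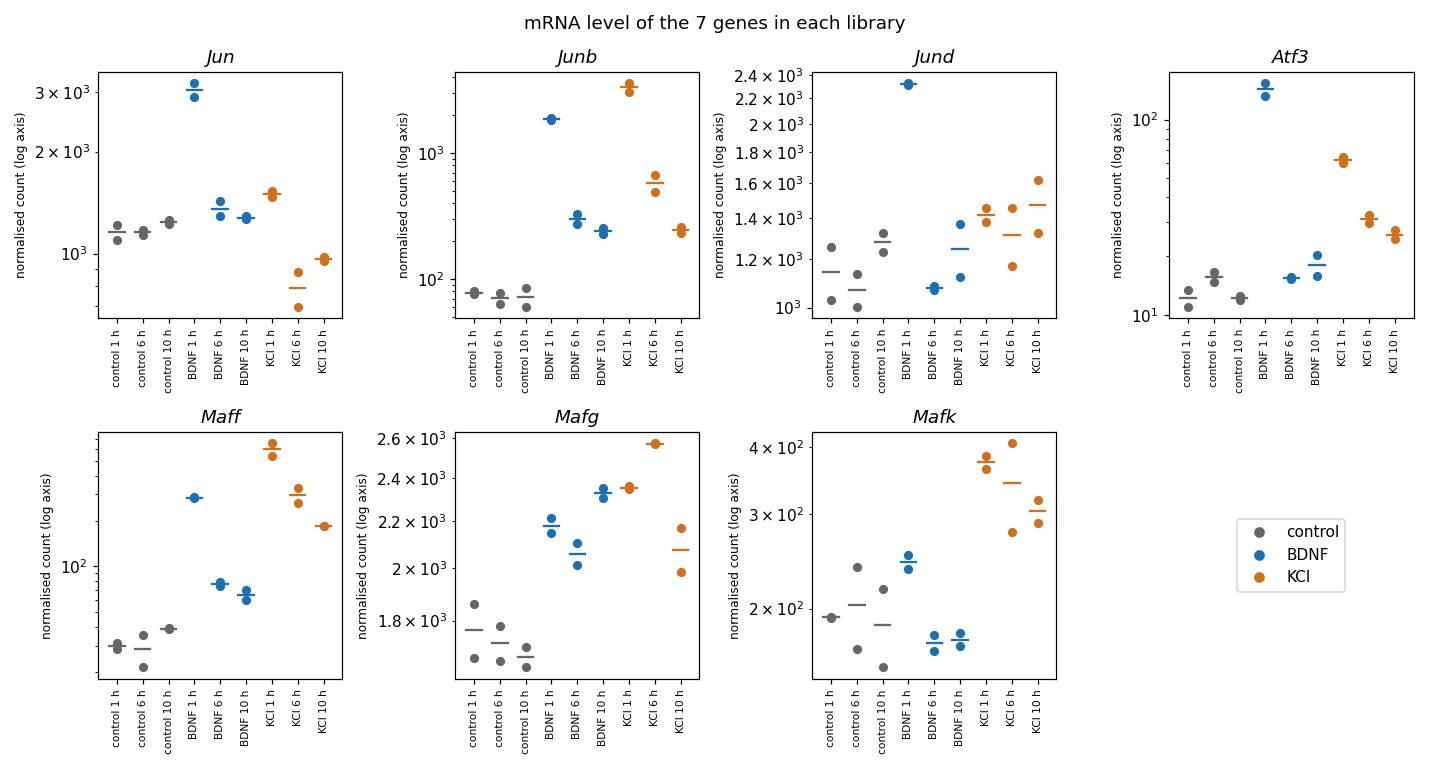
Normalised count (log axis) of each of the 7 genes in the 18 RNA libraries, by stimulus and time; points are libraries and horizontal lines the means of 2. Junb, Maff and Mafg stood above every control in every stimulated library, and Jun was highest at 1 h of BDNF and lowest at 6 h of KCl.

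Jun, on chromosome 4 from 95049034 to 95052222 on the minus strand (mm10), is a gene of a single exon and encodes c-Jun. It read 1096, 1193 and 1255 normalised counts as the lowest, median and highest of the 6 controls. BDNF took it to 2904 and 3184 at 1 h, 1286 and 1426 at 6 h, then 1260 and 1294 at 10 h. KCl gave 1466 and 1526 at 1 h, 884 and 695 at 6 h, then 978 and 951 at 10 h. All 6 BDNF libraries and both KCl 1 h libraries were above every control, although at 10 h of BDNF by little, and the KCl libraries of 6 h and 10 h were below every control. On the log2(normalised count + 1) scale the change was 1.36 ± 0.08 (SE) at 1 h of BDNF, 0.20 ± 0.08 at 6 h (adjusted p = 0.05064) and 0.11 ± 0.08 at 10 h, which was not called (adjusted p = 0.2767). With KCl the change of 0.34 ± 0.08 at 1 h was followed by -0.59 ± 0.08 at 6 h and -0.29 ± 0.08 at 10 h. The call at 6 h of BDNF was lost without BDNF 6 h library B (0.12). With KCl 6 h library B left out, the value at 6 h of KCl was -0.42 and still called. In the order of the 9 group means, BDNF 1 h stood first and differed from KCl 1 h, the second. KCl 1 h, BDNF 6 h, BDNF 10 h and the 3 control groups followed without a called difference between neighbours, and KCl 10 h and KCl 6 h came last, each called lower than its upper neighbour. Jun shares 232 bases of exon with its antisense RNA Junos, and the counting strand was not given in the sources used here, so reads of the pair cannot be told apart. The same holds for the overlaps given below for other genes.

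Junb, on chromosome 8 from 84974484 to 84978718 on the minus strand, had the largest change of the 7 at 1 h of either stimulus. Controls read between 60.1 and 84.6 normalised counts with a median of 77.4. BDNF gave 1829 and 1913 at 1 h, 330 and 272 at 6 h, then 228 and 254 at 10 h. KCl gave 3586 and 3034 at 1 h, 669 and 489 at 6 h, then 259 and 232 at 10 h. No stimulated library overlapped the controls at any time. The change was 25.2-fold (log2 4.66 ± 0.13) at 1 h of BDNF and 44.4-fold (5.47 ± 0.13) at 1 h of KCl, and then fell to 2.02 and 1.70 with BDNF and to 2.95 and 1.73 with KCl on the log2 scale. Without KCl 6 h library B, it was 3.17 at 6 h of KCl. KCl 1 h, BDNF 1 h, KCl 6 h and BDNF 6 h led the order, and each of the first 3 was called above the next, while BDNF 6 h, KCl 10 h and BDNF 10 h were not told apart and all stood above the 3 control groups. It shares 173 bases of exon with Prdx2, which is on the opposite strand.

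Jund, on chromosome 8 from 70698949 to 70700616 on the plus strand, is the Jun gene usually expressed at a steady level. Controls spread from 1002 to 1325 normalised counts with a median of 1185. BDNF gave 2331 and 2314 at 1 h, 1068 and 1086 at 6 h, then 1124 and 1371 at 10 h. KCl gave 1453 and 1378 at 1 h, 1457 and 1168 at 6 h, then 1617 and 1327 at 10 h. The BDNF 1 h libraries stood well clear of all others, and the KCl libraries of 1 h and 10 h were also above every control, though some of them by little. The log2 change was 1.00 ± 0.11 at 1 h of BDNF against 0.29 ± 0.11 at 1 h of KCl (adjusted p = 0.03247) and 0.34 ± 0.11 at 10 h of KCl (adjusted p = 0.01324), and values of -0.10, 0.10 and 0.17 at 6 h and 10 h of BDNF and 6 h of KCl were not called. Against controls of the same time alone, the value at 10 h of KCl was 0.20 and lost its call (adjusted p = 0.2306), as it did without KCl 10 h library A (0.20), and that at 6 h of KCl was 0.29 and gained one. The call at 1 h of KCl was lost without KCl 1 h library A (0.25), and the value at 6 h of KCl was called without control 10 h library B (0.21). In the order of groups, BDNF 1 h differed from the next, and none of the other 7 neighbouring pairs did. Gm11175, an antisense gene, shares 877 bases of exon with it.

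Atf3, on chromosome 1 from 191170296 to 191218039 on the minus strand, was weakly expressed, with 10 to 173 whole reads per library. Controls read between 11.0 and 16.6 normalised counts with a median of 13. BDNF gave 154 and 132 at 1 h, 15.3 and 15.6 at 6 h, then 15.8 and 20.4 at 10 h. KCl gave 64.2 and 59.9 at 1 h, 29.5 and 32.4 at 6 h, then 24.4 and 27.2 at 10 h. With BDNF the gene was back among the controls at 6 h, while with KCl both libraries stayed above every control at each time. The log2 change was 3.33 ± 0.20 at 1 h of BDNF and 2.14 ± 0.20 at 1 h of KCl, then 0.20 and 0.41 with BDNF, neither of them called, and 1.16 and 0.91 with KCl, on a scale that understates the change of genes this low. Without control 6 h library B the value at 10 h of BDNF was 0.47 and called. BDNF 1 h, KCl 1 h and KCl 6 h headed the order with called steps between them, and no neighbouring pair below KCl 6 h differed.

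Maff, on chromosome 15 from 79346621 to 79359076 on the plus strand, is the small Maf known to be induced by stress and growth signals. Controls read between 21.5 and 38.9 normalised counts with a median of 33.2. BDNF gave 283 and 288 at 1 h, 74.8 and 78.7 at 6 h, then 59.9 and 69.6 at 10 h. KCl gave 653 and 540 at 1 h, 329 and 263 at 6 h, then 186.2 and 185.8 at 10 h. All stimulated libraries were above every control, and every KCl library was above both BDNF libraries of its time. The change was 8.76-fold (log2 3.13 ± 0.17) at 1 h of BDNF and 18.2-fold (4.19 ± 0.17) at 1 h of KCl, and log2 1.25 and 1.00 at 6 h and 10 h of BDNF against 3.18 and 2.52 with KCl. KCl 6 h and BDNF 1 h, next in the order, were not told apart, nor were BDNF 6 h and BDNF 10 h, and the control groups were last.

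Mafg, on chromosome 11 from 120625117 to 120633600 on the minus strand, is the small Maf with the highest level here, and its changes were small and in 1 direction. Controls read between 1638 and 1861 normalised counts with a median of 1688. BDNF gave 2149 and 2213 at 1 h, 2107 and 2015 at 6 h, then 2304 and 2354 at 10 h. KCl gave 2350 and 2360 at 1 h, 2569 and 2575 at 6 h, then 2170 and 1984 at 10 h. Every stimulated library was above every control. The log2 change was called in all 6 comparisons, from 0.26 ± 0.06 at 6 h of BDNF to 0.58 ± 0.06 at 6 h of KCl. BDNF 6 h, the lowest stimulated group, was called above the next group, the 1 h controls, and no other neighbouring pair differed. It shares 124 bases of exon with Sirt7, on the same strand.

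Mafk, on chromosome 5 from 139791513 to 139802653 on the plus strand, followed KCl more than BDNF. Controls read between 155 and 239 normalised counts with a median of 192.6. BDNF gave 237 and 252 at 1 h, 167 and 178 at 6 h, then 180 and 170 at 10 h. KCl gave 364 and 384 at 1 h, 406 and 278 at 6 h, then 289 and 319 at 10 h. All 6 KCl libraries were above every control, while 1 of the BDNF 1 h libraries lay within the range of the controls. The log2 change was 0.96 ± 0.14, 0.80 ± 0.14 and 0.66 ± 0.14 at 1, 6 and 10 h of KCl. With KCl 6 h library B left out, it was 1.08 at 6 h. With BDNF it was 0.35 ± 0.14 at 1 h, called with an adjusted p of 0.06132, and -0.16 and -0.14 later, which were not called. That call was lost when either BDNF 1 h library was left out (0.39 and 0.30), when control 6 h library A (0.31) or control 10 h library B (0.28) was left out, and against controls of 1 h alone (0.34, adjusted p = 0.205). No neighbouring pair of groups differed along the whole order. It shares 169 bases of exon with Tmem184a on the opposite strand.

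**Figure D2:**
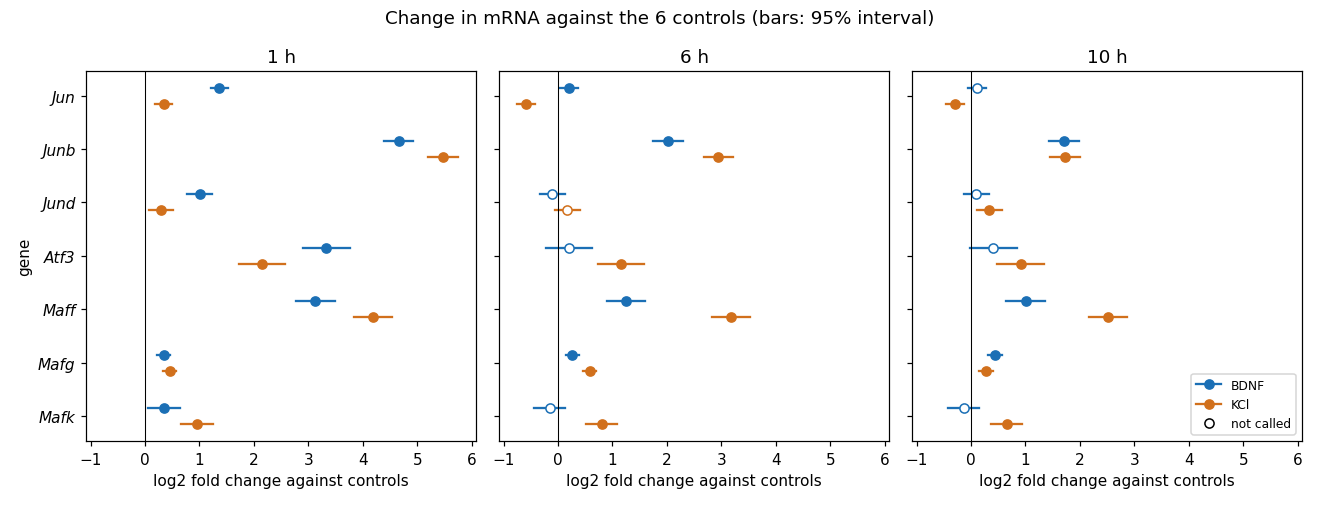
Log2 fold change of each gene against the 6 controls at 1, 6 and 10 h; points are limma estimates on log2(normalised count + 1), bars their 95% intervals, open points not called. Junb was furthest right at 1 h with either stimulus, and Jun with KCl was left of 0 at 6 h and 10 h.

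The stimuli were then compared with each other at each time, a difference that does not rest on the level of the controls. At 1 h BDNF was above KCl for Jun (log2 1.02 ± 0.10), Jund (0.71 ± 0.13) and Atf3 (1.19 ± 0.25), and below it for Junb (-0.82 ± 0.16), Maff (-1.06 ± 0.21) and Mafk (-0.61 ± 0.17). These 6 of 7 calls stood beside 42.8% of all genes, 24.6% with BDNF higher and 18.2% with BDNF lower. For Mafg the difference was -0.11 with a 95% interval of -0.26 to 0.04, and it was not called. At 6 h all 7 differed (57.3% of all genes did, 29.6% higher with BDNF and 27.8% lower), with Jun higher with BDNF by 0.79 and the other 6 lower, down to -1.93 for Maff. The call for Jund (-0.28, adjusted p = 0.08845) was lost when either BDNF 6 h library or KCl 6 h library A was left out, and with no filter on low values (adjusted p = 0.1117). With KCl 6 h library B left out all 7 stayed called, Jun at 0.61, Junb at -1.16, Jund at -0.43, Atf3 at -0.89, Maff at -2.09, Mafg at -0.32 and Mafk at -1.23. At 10 h 4 of 7 differed (45.0% of all genes, 23.1% higher with BDNF and 21.8% lower). Jun stayed higher with BDNF (0.41 ± 0.10), Maff (-1.51 ± 0.21) and Mafk (-0.79 ± 0.17) lower, and Mafg was higher by 0.17 (adjusted p = 0.07671), a call lost without any 1 of 3 libraries, BDNF 10 h A (0.18), BDNF 10 h B (0.15) or KCl 10 h B (0.10), and with no filter on low values (adjusted p = 0.1106). The interval for Junb at 10 h was -0.36 to 0.31, that for Jund, called without BDNF 10 h library B or KCl 10 h library B (-0.38), was -0.51 to 0.04, and that for Atf3 -1.02 to 0.03.

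The course over time also differed. From 1 to 6 h of BDNF 6 of 7 genes fell (33.6% of all genes were called, 15.8% higher and 17.7% lower), by 3.13 for Atf3, 2.64 for Junb, 1.88 for Maff, 1.17 for Jun, 1.11 for Jund and 0.50 for Mafk on the log2 scale. The call for Mafk was lost without BDNF 1 h library B (-0.46) or BDNF 6 h library A (-0.45). From 1 to 6 h of KCl 4 of 7 fell (59.6% of all genes called, 30.9% higher and 28.7% lower), namely Junb by 2.53, Maff by 1.01, Atf3 by 0.98 and Jun by 0.93. The same 4 were called with KCl 6 h library B left out, at -2.30, -0.85, -1.05 and -0.76. Without KCl 6 h library A the value for Mafk, -0.15, became -0.43 and was called. From 6 to 10 h of BDNF none of the 7 was called by limma, edgeR or DESeq2, where limma called 0.216% of all genes (0.074% higher and 0.142% lower), and 1, Mafg, had an unadjusted p below 0.05. From 6 to 10 h of KCl 4 of 7 were called (22.5% of all genes, 12.9% higher and 9.66% lower): Junb fell by 1.22, Maff by 0.66 and Mafg by 0.31, while Jun rose by 0.30. Without KCl 6 h library B, the value for Jun was 0.13 and not called, and without KCl 10 h library A 2 of the 7 were called, Junb and Mafg. The call for Maff was also lost without KCl 6 h library A (-0.50) or KCl 10 h library B (-0.66). The fall from 1 to 6 h was smaller with KCl than with BDNF for 3 of 7 genes by the test of the difference itself (48.1% of all genes called, 26.4% higher and 21.8% lower), by 2.14 ± 0.35 for Atf3, 0.99 ± 0.19 for Jund and 0.87 ± 0.30 for Maff. With KCl 6 h library B left out, 5 genes were called, with Jun at 0.41 and Mafk at 0.62 added, and without KCl 1 h library B Maff lost its call (0.73). Among controls, none of the 7 was called at 6 h or 10 h against 1 h by limma, edgeR or DESeq2 (0.0% of all genes with limma), and none had an unadjusted p below 0.05.

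Levels were compared between genes per kb of exon. In controls Jund made up 63.3% ± 1.6 (SD, n = 6) of the summed Jun family count per kb, Jun 33.8% ± 1.5 and Junb 2.93% ± 0.41. At 1 h of KCl, Junb held 50.3 and 53.9% in the 2 libraries and Jun and Jund fell to means of 17.1 and 30.8%. At 1 h of BDNF the family was more even, with Junb at 25.6 and 25.8%, Jun at a mean of 30.2% and Jund at 44.1%. Junb was thus the largest member at 1 h of KCl and the smallest at 1 h of BDNF. The order of Jun and Jund depended on the scaling by length: without it Jun was at 48.9% and Jund at 48.0% in controls, at 42.0 and 32.1% at 1 h of BDNF, and at 24.1 and 22.8% at 1 h of KCl. The summed level of the family was 1101 ± 97 counts per kb in controls, 3160 at 1 h of BDNF and 2756 at 1 h of KCl, and 1202 to 1291 in the 4 later stimulated groups. By 10 h Junb was at 8.37% with BDNF and 8.28% with KCl. Among the small Maf genes Mafg held 83.1% ± 2.5 in controls, and Maff rose from 3.39% ± 0.73 to 19.6% at 1 h of BDNF and 30.8% at 1 h of KCl, and was at 5.15 and 13.8% at 10 h.

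**Figure D3:**
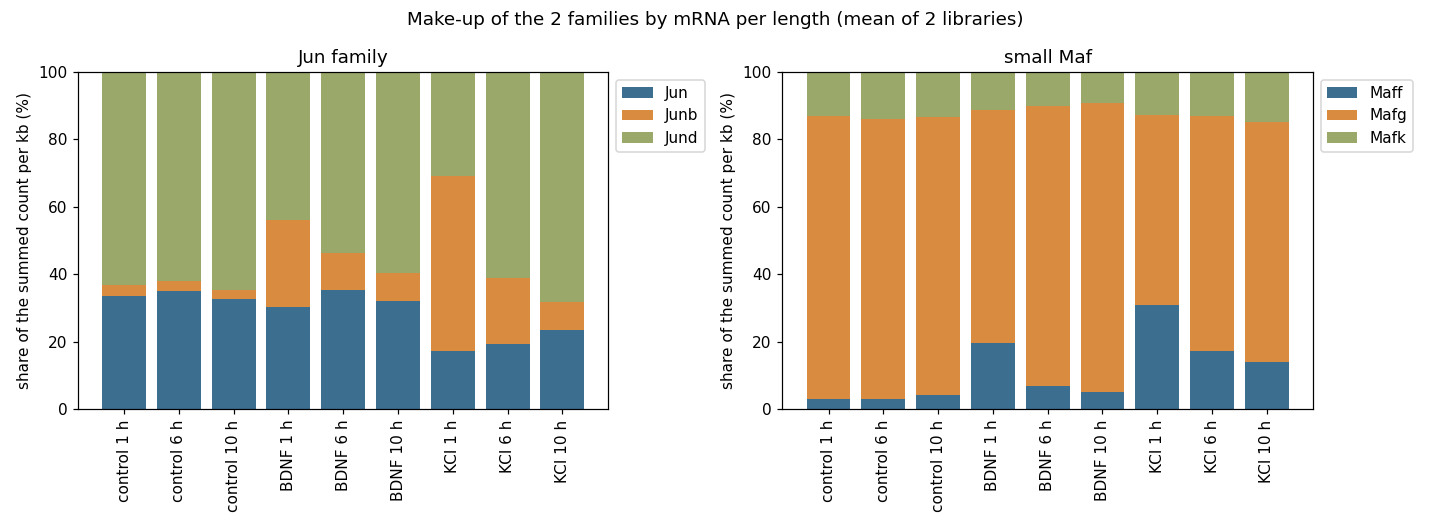
Share (%) of each gene in the summed normalised count per kb of exon of the Jun family (left) and the small Maf genes (right), mean of 2 libraries in each group. Junb took 52.1% of the Jun family at 1 h of KCl and 25.7% at 1 h of BDNF, against 2.93% over all controls.

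Genes of the pathway around these 7 were taken from lists chosen for this description. Their counts stand beside the shares of all genes called given above, 40.4, 43.3 and 40.6% at 1, 6 and 10 h of BDNF and 54.7, 66.5 and 57.2% with KCl, and nothing is called particular to a list from them. Of the 4 Fos family genes, the main partners of Jun proteins, all 4 were higher at 1 h of BDNF and 3 at 1 h of KCl. Fosb was at a log2 change of 6.72 and 9.52, and Fos at 5.63 and 7.30. Fosl1 was at 1.45 with BDNF and at 0.26 with KCl, which was not called, and it was lower at 6 h of KCl (-0.56), the same direction as Jun. The median change of the 4 was 3.93 at 1 h of BDNF and 4.45 at 1 h of KCl, and at 6 h it was -0.06 with BDNF and 3.54 with KCl. That median hides Fos, the only 1 of the 4 still called at 6 h and 10 h of BDNF, higher by 1.73 and 1.74.

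Among the 5 tested of 8 listed ATF, JDP and BATF partners, 3 were higher and 1 lower at 1 h of BDNF, and 1 was higher and 1 lower at 1 h of KCl. Ddit3, a stress-induced partner of Atf proteins, was at 1.81 with BDNF and -0.09 with KCl (not called), whereas Atf4, the effector of the integrated stress response, was higher with both, at 1.15 and 1.58. Of the 5 tested of 6 listed CNC and Bach partners of the small Maf proteins, 2 were higher and 2 lower at 1 h of BDNF. None was called at 1 h of KCl, and 3 were higher at 6 h of KCl. Nfe2l2 was called only at 10 h of BDNF, where it was lower (-0.74). Bach1, a repressor that pairs with small Maf proteins, was at 1.15 at 1 h of BDNF and -0.12 (not called) with KCl. Nfe2l3 was lower at all 3 times of BDNF, from -0.61 to -0.96, and higher at 6 h and 10 h of KCl, at 0.41 and 0.39.

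Of the 17 tested of 18 listed genes of the JNK pathway, which phosphorylates c-Jun, and of Jun turnover, 7 were higher and 1 lower at 1 h of BDNF, and 6 and 6 at 1 h of KCl. At 6 h of KCl 13 of 17 were higher and 2 lower, with a median of 0.41, beside 33.4% and 33.1% of all genes, and at 6 h of BDNF 3 were higher and 4 lower, beside 22.1% and 21.1%. Trib1, an adaptor of the COP1 ubiquitin ligase, was at 2.81 at 1 h of BDNF and 2.18 at 1 h of KCl. Mapk10, which encodes JNK3, the JNK of neurons, was lower at 6 h of BDNF (-0.75) and higher at 6 h of KCl (0.30). Of 15 genes with known antioxidant response elements, 7 were higher and 1 lower at 1 h of BDNF and 7 higher and 2 lower at 1 h of KCl. At 6 h of KCl 9 were higher and 4 lower, beside 33.4% and 33.1% of all genes, and at 10 h 7 and 4, beside 29.0% and 28.2%. Srxn1, which encodes sulfiredoxin, was at 2.27, 1.14 and 0.62 over the times of BDNF and 0.21, 0.66 and 0.71 with KCl. Gsr was lower over the times of KCl, at -0.24, -0.56 and -0.83, and Nqo1 was lower at 10 h of KCl (-0.85). Osgin1 was called only at 6 h of KCl, where it was higher (1.45). Of the 8 tested of 15 listed AP-1 target genes, 5 were higher at 1 h of BDNF and 3 at 1 h of KCl, and none was lower. Npy, a neuropeptide of interneurons, was at 1.27 at 10 h of BDNF and 0.82 at 10 h of KCl. Hmga1, a chromatin protein, was at 1.26 at 1 h of BDNF and 0.28 at 1 h of KCl. Penk, which encodes proenkephalin, was higher in all 6 comparisons, from 0.52 to 1.13.

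The 9 group means on the log2 scale were used to find the genes with the most similar pattern among all tested. For Junb these were Sik1 (Pearson r = 0.994 over 9 groups), Ier2 (0.99) and Papolb (0.98). For Maff they were Fos (0.994), Atf4 (0.99) and B9d1os (0.987), and for Mafk Npas4 (0.997), Nfil3 (0.995) and Slc38a2 (0.994). Atf3 was closest to Srf (0.981), Chka (0.98) and Nup153 (0.975). The values for Jun were lower, with Foxn2 (0.971), Zfp948 (0.97) and 2010001K21Rik (0.967), as they were for Jund, with Mnt (0.943), Zswim6 (0.941) and Kcna3 (0.939). Mafg was closest to Myl6 (0.98), Ubl3 (0.976) and Psmb1 (0.97). Between the 7 genes themselves r ranged from -0.125 for Jun and Mafk to 0.934 for Junb and Maff. All these values come from the same libraries and are given as a description.

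Accessibility was read at the 18 ATAC peaks whose nearest protein-coding start, within 50 kb, belonged to one of the 7 genes. There were 4 such peaks for Jun, 3 each for Junb, Jund and Atf3, 2 each for Maff and Mafk, and 1 for Mafg. A peak was called gained or closing when its adjusted p from edgeR, over 56383 peaks, was below 0.1. At 1 h of BDNF 2 of 18 were gained and 1 was closing, beside 17.3% of all peaks, 12.5% gained and 4.78% closing. At 6 h and 10 h of BDNF 1 of 18 was gained, beside 10.6% (8.88% gained and 1.75% closing) and 9.36% (7.46% and 1.9%). With KCl 2 were gained at 1 h (8.34% of all peaks, 5.29% gained and 3.05% closing) and 1 was gained and 1 closing at 6 h (7.49%, 5.44% gained and 2.06% closing). At 10 h of KCl none was called by edgeR (7.87% of all peaks, 5.91% gained and 1.96% closing), 1 was called with TMM scaling or DESeq2 size factors in place of LOESS, and 1 had an unadjusted p below 0.05. These shares are near or below those of all peaks in most comparisons, so nothing was read from the counts, and single peaks are described.

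The peak with the smallest adjusted p lay 25.9 kb downstream of the Jun start, at chr4:95026039-95026614, inside Gm12694 and outside its exons. Its central 300 bases, chr4:95026177-95026476 on the plus strand of GRCm38.p6, are printed because the stimuli differed most here among the 18 peaks (it was chosen after its values were seen). They held none of the elements searched, so no letter is in capitals.
Jun peak, plus strand: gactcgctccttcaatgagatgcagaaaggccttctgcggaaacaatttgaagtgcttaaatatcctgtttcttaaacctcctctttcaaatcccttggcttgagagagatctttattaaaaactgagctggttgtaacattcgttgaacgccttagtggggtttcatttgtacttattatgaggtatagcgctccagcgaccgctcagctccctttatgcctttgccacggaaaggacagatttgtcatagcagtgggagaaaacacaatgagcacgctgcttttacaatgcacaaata
The LOESS-scaled read counts in the 6 controls were 41.8 and 36.1 at 1 h, 18 and 10.1 at 6 h, then 17.4 and 22 at 10 h. BDNF gave 65.5 and 81.9 at 1 h, 59.7 and 56.2 at 6 h, then 67.7 and 36.8 at 10 h. KCl gave 24.4 and 12.8, then 23.3 and 26.1, then 43.8 and 11.8. The BDNF libraries of 1 h and 6 h were above every control, and 1 of those at 10 h was not, while KCl libraries lay among the controls or, in 1 library at 10 h, just above them. The log2 change was 1.59 ± 0.29 (adjusted p = 5.098e-06) at 1 h, 1.24 ± 0.30 at 6 h and 1.07 ± 0.33 at 10 h of BDNF, and -0.44, -0.01 and 0.17 with KCl, none of them called. BDNF was above KCl by 2.04 ± 0.39 at 1 h (adjusted p = 5.066e-05; 14.9% of all peaks were called, 9.3% higher and 5.55% lower with BDNF) and by 1.25 ± 0.42 at 6 h (adjusted p = 0.09162; 3.63% of peaks, 2.25% higher and 1.37% lower), and at 10 h, where none of the 18 was called by edgeR (1.99% of peaks, 1.16% higher and 0.83% lower) or DESeq2 and 2 had an unadjusted p below 0.05, the difference was 0.90 ± 0.41. The 1 h controls were the highest of the controls at this peak, and against them alone the change at 1 h of BDNF was 0.93 (adjusted p = 0.06614). BDNF at 6 h and at 10 h, each against the controls of its own time alone, was at 2.03 and 1.35. All 3 BDNF changes stayed called. KCl at 1, 6 and 10 h, compared in the same way, stood at -1.11, 0.77 and 0.45 and was not called. The call at 10 h of BDNF was lost without library A (0.58) and with the DESeq2 Wald test (1.10, adjusted p = 0.2796), as was the call at 6 h with that test (1.25, adjusted p = 0.1515). The call of BDNF against KCl at 6 h was lost when any 1 of the 4 libraries compared was left out (1.14 to 1.31). It was also lost with TMM scaling (1.18, adjusted p = 0.1028), the DESeq2 Wald test (1.24, adjusted p = 0.418), limma (adjusted p = 0.1816) and no filter on low values (1.25, adjusted p = 0.1006). Without KCl 10 h library A, KCl 10 h stood at -1.04 and BDNF was above it by 2.11, a difference that was called.

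A neighbouring peak at chr4:95023498-95023962, also inside Gm12694, read 61.8 and 53.4 at 1 h of BDNF against 24.1 to 47.8 in controls and 25.3 and 31.8 at 1 h of KCl. Its change was 0.77 ± 0.27 with BDNF (adjusted p = 0.03728) and it was 0.99 above KCl, and both calls were lost when either BDNF 1 h library was left out. Against the controls of 1 h alone the change was 0.57 and not called, and the difference from KCl was also lost without either KCl 1 h library (0.84 and 1.17). A further Jun peak, at chr4:95037874-95038294, read 13 and 10.2 at 6 h of KCl against 17.5 to 52.4 in controls (-1.39 ± 0.44, adjusted p = 0.04355). That call was lost without either KCl 6 h library (-1.63 and -1.29) or control 6 h library B (-1.20). The Jun promoter peak, at chr4:95051924-95053473, was called in no comparison.

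Promoter peaks moved little beside the RNA. Over the 7 promoter peaks and the 6 comparisons against controls, log2 changes lay between -0.42 and 0.63, and 3 of 42 were called. In these comparisons, which share the same controls, 7.49 to 17.3% of all peaks were called, so nothing was read from this count. The Maff promoter, chr15:79347188-79348154, which holds the Maff window printed above, read 83.5 to 123.5 in controls, 174.9 and 162.9 at 1 h, 143.1 and 175.8 at 6 h, then 151.0 and 141.4 at 10 h of KCl. All KCl libraries were above every control, and the change was 0.63 ± 0.15 at 1 h (adjusted p = 0.003621), 0.51 ± 0.17 at 6 h (adjusted p = 0.05624) and 0.42 ± 0.16 at 10 h, which was not called (adjusted p = 0.1117). With BDNF it was 0.30 at 1 h and not called. The call at 1 h of KCl was lost without KCl 1 h library A (0.58), and that at 6 h without either KCl library (0.69 and 0.39) or control 6 h library B (0.44), and with TMM scaling or DESeq2 size factors (0.41 and 0.37).

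The Atf3 promoter, chr1:191182974-191183708, read 158.4 and 163.0 at 1 h of KCl against 91 to 143.8 in controls, a change of 0.42 ± 0.15 (adjusted p = 0.07678), and 119.5 and 120.6 at 1 h of BDNF, a change of 0.001 that was not called, while the mRNA was higher with BDNF than with KCl. That KCl call was lost without either KCl 1 h library (0.44 and 0.40) or either 1 h control (0.36 and 0.38), with DESeq2 size factors (0.37), with the DESeq2 Wald test (adjusted p = 0.108) and with limma (adjusted p = 0.1609). The Junb promoter, chr8:84978511-84978953, read 69.0 to 93.9 in controls, 94.9 and 83.7 at 1 h of BDNF and 70.8 and 85.9 at 1 h of KCl, and it was called in no comparison. Its change at 1 h was 0.13 ± 0.21 with BDNF and -0.05 ± 0.20 with KCl, beside the largest RNA change of the 7 genes. The Jund promoter, chr8:70698387-70699435, read 337.8 and 303.0 at 1 h of BDNF and 400.3 and 401.0 at 1 h of KCl, a difference of -0.33 ± 0.12 (adjusted p = 0.05928) opposite in sign to the RNA difference, and this call was lost without BDNF 1 h library B (-0.25) or either KCl 1 h library (-0.33 and -0.32), and with TMM scaling or DESeq2 size factors (-0.23). An exonic peak of Maff at chr15:79357513-79357732 read 6.0 and 6.0 at 1 h of BDNF against 12.5 to 29.7 in controls (-1.51 ± 0.53, adjusted p = 0.03849), and the call was lost without either BDNF 1 h library and with TMM scaling (-1.27).

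**Figure D4:**
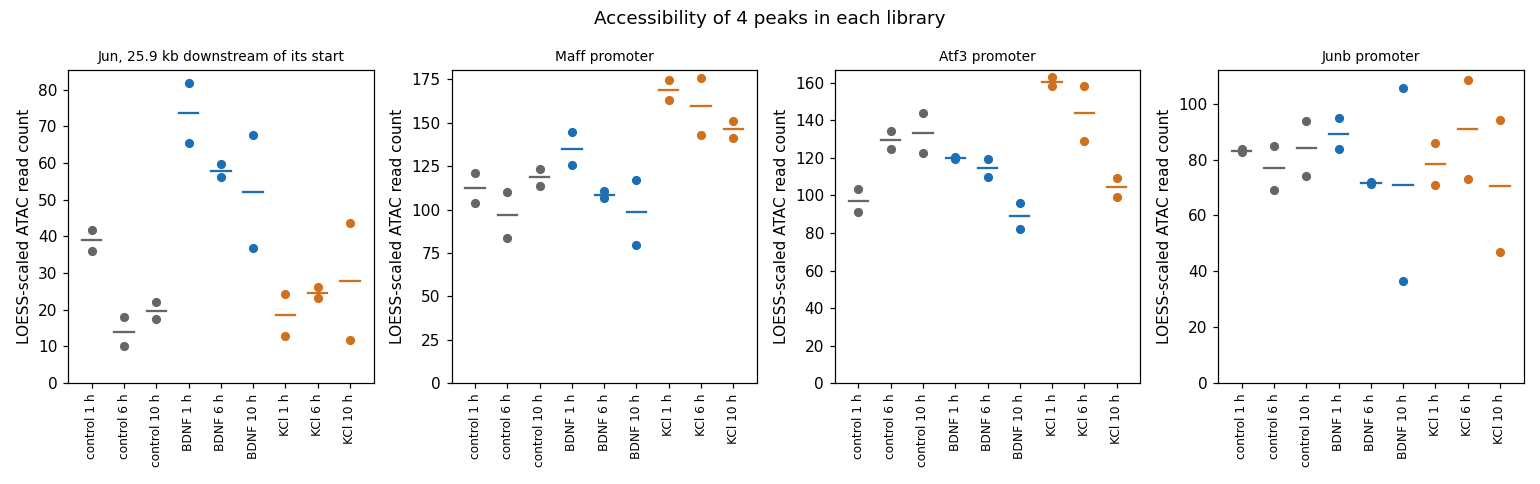
LOESS-scaled ATAC read count, from 0, in each library at the Jun peak 25.9 kb downstream and at the Maff, Atf3 and Junb promoters, by stimulus and time; lines are means of 2. At the Jun peak the BDNF libraries of 1 h and 6 h were above all 6 controls, and at the Maff promoter all KCl libraries were.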

How the data were processed

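The members and the gene lists were chosen with earlier results of these data known. RNA reads had been placed on mm10 by the authors using TopHat2 and GENCODE transcripts (the counter is not given in the sources used here), and the deposited values are a signal, read counts divided by 1 size factor per library; 100.0% of them gave whole reads within 0.01, and 26203 of 26709 genes had a symbol. For ATAC, the authors used Bowtie2 for alignment and MACS2 for peaks, kept peaks found in at least 2 samples and counted reads with DiffBind, and the deposited table, described as normalised, holds whole numbers of at least 1, which were read here as unscaled counts; the LOESS-scaled values rest on that reading. The deposited tables of fold changes and p-values were not used, except for gene names. Here log2(value + 1) was tested with limma 3.58.1 (7 levels, the 6 controls as 1 level, trend and robust, mean of at least 10), and peak counts with edgeR 4.0.16 (quasi-likelihood, LOESS offsets, span 0.3). The SE of a peak's log2 change was taken from the size of the change and its F value. Tests were two-sided, with Benjamini-Hochberg adjustment over all features. The count tests on recovered reads (edgeR and DESeq2 1.42.0) called 6430 and 5759 genes at 1 h of BDNF. Where replicates were not separate cultures, p-values measure only the spread between these samples. No pair agreed within sampling noise. Both tests were run on simulated data with a fixed spread, not that of these libraries, which cannot vouch for the calls here. Named beside the 7 genes are, per list, up to 4 genes with the largest called change against controls, the 3 most similar genes per member, and promoter and called peaks. Gene positions and peak annotation are from GENCODE M21. Alternatives were other pseudocounts, filters, scalings, tools, thresholds, control sets and each library left out. The count tests of controls over time were added after seeing the data. The results of 1 gene list are not reported here.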

Additional observations from a re-analysis of the deposited data

Results flagged for a closer look

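For 3 of the 7 genes the change from 1 to 6 h differed between the stimuli in the test of the difference itself. Of all genes 48.1% were called in this test, 26.4% higher and 21.8% lower, so nothing was read from the count. KCl minus BDNF was 0.99 for Jund, 2.14 for Atf3 and 0.87 for Maff on the log2 scale. Without KCl 1 h library B the value for Maff was 0.73. The change of Jund was -1.11 with BDNF and -0.12 with KCl, the latter not called, while Atf3 fell by 3.13 and 0.98 and Maff by 1.88 and 1.01. In the exonic Maff peak at chr15:79357513-79357732, 1 control library (1 h, A) read 29.7 scaled counts and the other 5 between 12.5 and 16.8, a gap of 0.75 of the range of the controls. It was the only 1 of 25 sets of 6 control libraries examined (7 genes and 18 peaks) to pass this limit, and chance passes about 1 in 20.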

How the results depend on the processing

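Of 365 alternative values of the counts and shares, 306 stayed within the limits of 1.5 times a count or 1 SD of a share and 59 moved. Of 1816 alternative values of single genes and peaks, 86 lost their call, 11 gained one and 32 changed sign, none of the last being called in either fit. With an adjusted p below 0.01 the RNA count from 6 to 10 h of KCl became 2, and the peak counts became 1 at 1 h of BDNF, 0 at 10 h of BDNF, 1 at 1 h and 0 at 6 h of KCl, and 1 and 0 for BDNF against KCl at 1 h and 6 h. With peaks within 20 kb they were 1, 0 and 0 at 1, 6 and 10 h of BDNF, and 1 and 0 for BDNF against KCl at 1 h and 6 h. With every peak within 50 kb they were 2 and 3 at 6 h and 10 h of BDNF, 4 at 1 h of KCl, and 5 and 2 for BDNF against KCl at 1 h and 10 h. TMM scaling gave 2 at 10 h of BDNF and 1 at 10 h of KCl. DESeq2 size factors gave 2 at 10 h of BDNF, 1 at 1 h and 1 at 10 h of KCl and 2 for BDNF against KCl at 6 h. The DESeq2 Wald test gave 0 at 6 h and 0 at 10 h of BDNF, 1 at 1 h of KCl and 0 for BDNF against KCl at 6 h, limma gave 1 at 1 h of KCl and 0 for BDNF against KCl at 6 h, and that count was 0 with no filter on low values. With shares taken without gene length, Junb at 6 h of KCl was 21.5% and Maff was 1.67% in controls, 10.53% at 1 h of BDNF and 17.92% at 1 h of KCl.

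With each library left out in turn, the RNA count for the difference in the change from 1 to 6 h lay between 2 and 5 and that from 6 to 10 h of KCl between 2 and 3. The peak counts lay between 1 and 3 at 1 h and 0 and 2 at 10 h of BDNF, for KCl between 0 and 2 at 1 h, between 0 and 2 at 6 h and between 0 and 1 at 10 h, and for BDNF against KCl between 1 and 2 at 1 h, at 0 at 6 h and between 0 and 1 at 10 h. Signs of uncalled values changed as follows. Against controls of the same time Jund was 0.014 and -0.043 at 6 h and 10 h of BDNF and Atf3 -0.015 at 6 h of BDNF, and the Jun peak at chr4:95026039-95026614 was 0.771 at 6 h of KCl. Atf3 in controls of 10 h against 1 h was -0.055 with edgeR and -0.039 with DESeq2. At 6 h of KCl that Jun peak was 0.058 with TMM, 0.016 with DESeq2 size factors, 0.01 with the DESeq2 Wald test and 0.168 with limma. The Atf3 promoter at 1 h of BDNF was -0.062 with TMM and -0.072 with DESeq2 size factors. With libraries left out, the ranges were -0.044 to 0.243 for Jund at 10 h of BDNF, -0.113 to 0.339 for Junb in the difference of changes, -0.028 to 0.07 for Mafk from 6 to 10 h of BDNF, -0.107 to 0.052 for Junb in BDNF against KCl at 10 h, -0.277 to 0.042 for Jund and -0.427 to 0.119 for Mafk from 1 to 6 h of KCl, and -0.419 to 0.127 for Mafk from 6 to 10 h of KCl. They were -0.065 to 0.058 for the Atf3 promoter at 1 h of BDNF, -0.199 to 0.08 for the Junb promoter at 1 h of KCl, and -0.922 to 0.011, -0.17 to 0.188 and -1.044 to 0.852 for the Jun peak at 1, 6 and 10 h of KCl. The cause of these shifts was not tested.

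The column letters of the RNA table were not taken to pair the samples: over 36 pairs of groups the correlation of the deviations of same-lettered libraries ran from -0.315 to 0.418 with a median of 0.065, and 13 of the 36 were over 0.1. With the replicate block the counts of members stayed at 7, 4 and 3 for BDNF and 7, 6 and 7 for KCl, and at 6, 7 and 4 between the stimuli, and over all genes 6546 calls at 1 h of BDNF became 6705. For ATAC, no paired analysis was possible because its columns carry no number. With 2 libraries a group, the precision of counts such as those of Atf3 (10 to 173 reads) and of the Jun peak is limited by depth.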
